A study of Drosophila melanogaster with 20 samples.

Results

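Embryos in which otk2 was knocked down (otk2 RNAi) were set directly against embryos in which its paralog otk-1 was overexpressed (UAS-otk1), with no detour through wild type. The comparison rests on 4 of the 20 libraries of the series, 2 of otk2 RNAi and 2 of UAS-otk1, chosen by their labels. Every group came from whole Drosophila melanogaster embryos collected over a 24 h egg lay at 25 °C, from freshly laid to late ages in each library. Total RNA was extracted and read from both ends over 151 bases. In the otk2 RNAi embryos a combination of maternal and daughterless GAL4 drove a hairpin against otk2, and in the UAS-otk1 embryos the same driver drove an otk-1 transgene. Maternal drivers act in the germline of the mother and daughterless is expressed broadly, so neither change was aimed at a single tissue. The other groups, with 2 libraries each, were UAS-wnt4, UAS-otk1 UAS-wnt4, wnt4 RNAi, otk1 RNAi, otk1 RNAi wnt4 RNAi, otk2 RNAi wnt4 RNAi, otk1 RNAi otk2 RNAi and WT. They set the common estimate of the spread and served to look up genes that the pair had picked out. The study names several otk2 hairpin stocks, and the sources used here state neither which of them was crossed nor the genotype behind WT. The UAS transgenes and hairpins are separate insertions in separate stocks, so the transgene and the stock that carries it cannot be told apart. No label says whether the replicates of a group were collected apart, so a p-value here weighs differences against a replicate spread that may be technical.

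Wnt proteins are secreted signals. In the canonical branch a Wnt binds Frizzled and Arrow at the cell surface, Armadillo (β-catenin) escapes destruction, and target genes are transcribed with Pangolin. Off-track, the fly ortholog of the vertebrate receptor PTK7, is a transmembrane pseudokinase that lies beside this pathway, and otk2 is its close paralog and chromosomal neighbour. The annotation calls the otk-1 gene otk, and that name is used for its RNA. The question put to the pair was how far the RNA of embryos with less otk2 resembles that of embryos with more otk.

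The libraries held 34955059 and 35058005 counts in otk2 RNAi and 34895347 and 34712033 counts in UAS-otk1, against 33641557 to 41753919 over all 20. Levels below are counts per 1000000 counts of the scaled library (CPM), and a difference is the log2 fold change of otk2 RNAi over UAS-otk1 with its standard error. Markers of the expected embryonic tissues were present in all 4 libraries: 3 zygotic patterning genes (eve, Kr and en) summed to 150 and 132 CPM in otk2 RNAi and to 152 and 135 CPM in UAS-otk1. Eggshell and yolk genes summed to 4.26 and 5.2 CPM in otk2 RNAi and to 3.55 and 4.47 CPM in UAS-otk1, with 2 of the 18 at 0 throughout. A score of developmental age, the mean log2 CPM of late minus early gene lists, was −2.34 and −1.93 in otk2 RNAi and −2.94 and −2.27 in UAS-otk1, and the groups overlapped. One library stood apart: UAS-otk1 replicate 2 held 1550 CPM of the 6 Hsp70 copies, against 44.5 CPM in UAS-otk1 replicate 1 and 44.0 and 69.5 CPM in otk2 RNAi. In the libraries labelled wnt4 RNAi, Wnt4 was at 159 and 143 CPM, against 126 and 107 CPM in WT, and therefore was not lower than in WT.

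The targeted genes differed in the pair as their labels say. Otk lies on chromosome 2R (dm6, 12001473 to 12019846, minus strand) and overlaps the annotated lncRNA:CR44306. It was at 156 and 112 CPM in otk2 RNAi, against 2194 and 1984 CPM in UAS-otk1 and 199 and 178 CPM in WT. Both UAS-otk1 libraries were far above the others, and the difference was −3.96 ± 0.20 (edgeR quasi-likelihood test, adjusted p = 1.08e-07). Otk2, 3300 bases away at 12023146 to 12025272 on the same strand, was at 28.4 and 23.6 CPM in otk2 RNAi, against 51.7 and 50.1 CPM in UAS-otk1 and 67.5 and 61.6 CPM in WT. The otk2 RNAi libraries were the lower ones without overlap, by −0.97 ± 0.14 (adjusted p = 0.00528). This call was lost without otk2 RNAi replicate 2 and when only the 4 libraries were fitted, and over all settings the adjusted p reached at most 0.176. Per length, as deposited in TPM, otk was at 37.2 and 22.7 in otk2 RNAi, against 524 and 502 in UAS-otk1, and otk2 was at 17.4 and 12.3 TPM against 31.7 and 32.8 TPM. In both groups otk was thus the more abundant of the paralogs.

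Beyond the targeted genes few RNAs differed. Of 11154 genes tested, 57 (0.511%) passed the adjusted p threshold of 0.1, 33 of them higher (0.296%) and 24 lower (0.215%) in otk2 RNAi, while 512 had an unadjusted p under 0.05. The median difference over all genes was 0.00358. The libraries of the groups did not overlap for any of the 57. Over all genes tested, both otk2 RNAi libraries lay above both UAS-otk1 libraries in 16.6% and below them in 19.8%. Among the 57, 54 were protein coding, 2 pseudogenes and 1 a noncoding RNA, and 38 averaged under 10 CPM over the 4 libraries. CG13223, CG5892 and Ir64a reached the filter of 10 mean counts only through the group where they are high, CG13223 with 8.33, CG5892 with 4.94 and Ir64a with 0.222 mean counts in the other 18 libraries. A gene of that kind had to differ to be tested, and its values are a description. The count depended on each library: 19 genes passed without UAS-otk1 replicate 1, 28 without UAS-otk1 replicate 2, 24 without otk2 RNAi replicate 1 and 17 without otk2 RNAi replicate 2. Whichever of the 4 was left out, 14 of the 57 still passed and 26 were lost without each of the 4 in turn, and none of the 57 changed direction. The 14 were arm, CG13083, CG2955, CG31221, ClC-a, CR32011, Cyp4p1, DNaseII, GILT3, MED20, otk, poe, pre-mod(mdg4)-G and y. Since these are whole embryos, fewer cells of a type and less RNA per cell cannot be told apart for any gene.

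**Figure D1:**
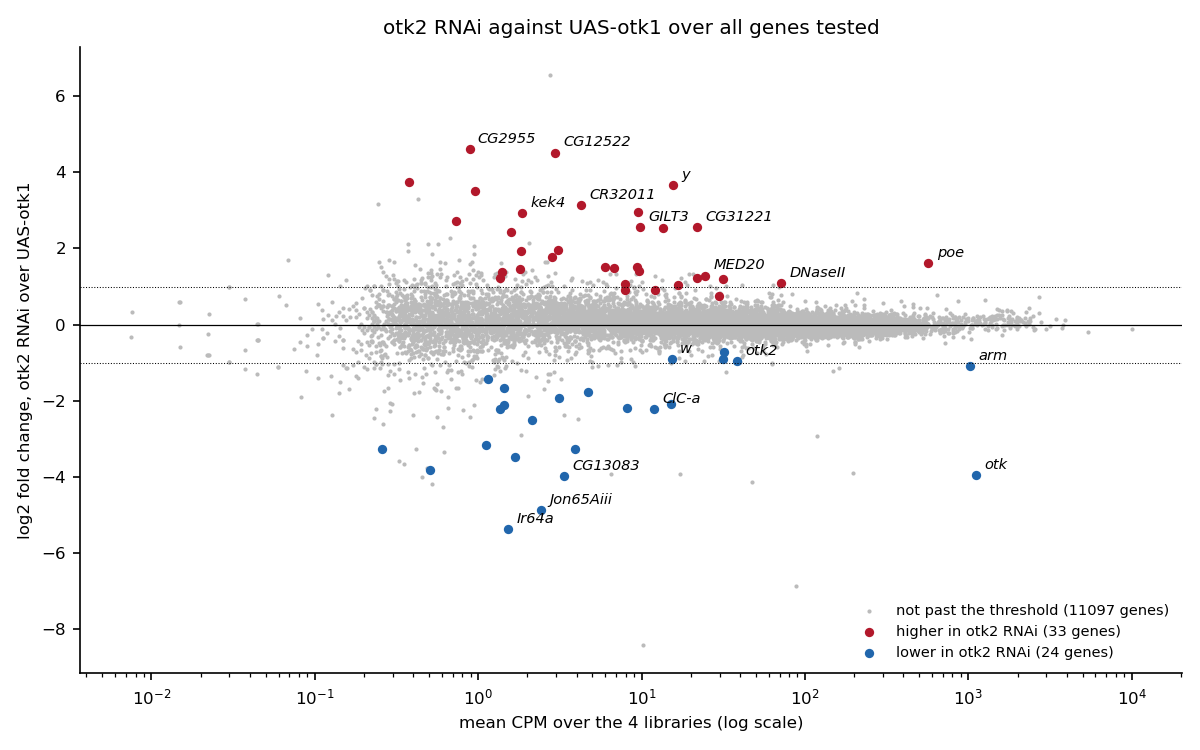
Mean level of each tested gene over the 4 libraries (CPM, log axis) against the log2 fold change of otk2 RNAi over UAS-otk1. Grey points are the 11097 genes that did not pass an adjusted p of 0.1, red points the 33 higher and blue points the 24 lower in otk2 RNAi, and dotted lines mark a 2-fold difference. Most of the coloured points lie at low levels.

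A gene that misses the threshold is not shown to be alike in the groups, so the interval of each difference was taken from the same fit. The 95% interval lay within 2-fold for 8382 of the 11144 genes that have one (75.2%) and within 1.5-fold for 5264 (47.2%). For the other 2762 genes the interval reached a 2-fold difference or lay beyond it, as for otk and y. Of the 7489 genes at 10 CPM or more, 7034 (93.9%) had an interval within 2-fold. With 1 library left out the share within 2-fold was 65.3% (UAS-otk1 replicate 1), 66.5% (UAS-otk1 replicate 2), 64.9% (otk2 RNAi replicate 1) and 66.7% (otk2 RNAi replicate 2).

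The group means of otk2 RNAi and UAS-otk1 were 0.413 apart, as the root mean square log2 difference over genes. This was the smallest distance of either group to any other. Otk2 RNAi was 0.466 from UAS-otk1 UAS-wnt4, 0.484 from UAS-wnt4, 0.589 from otk1 RNAi and 0.672 from WT. UAS-otk1 was 0.466 from UAS-otk1 UAS-wnt4, 0.488 from UAS-wnt4, 0.552 from otk1 RNAi and 0.677 from WT. Single libraries of the pair were 0.509 to 0.565 apart across groups, against 0.476 within otk2 RNAi and 0.497 within UAS-otk1. The nearest library to UAS-otk1 replicate 2 was UAS-wnt4 replicate 2, at 0.470, and the other 3 had their own replicate as the nearest. The share of genes that differed was higher when either group was set against otk1 RNAi: 622 genes (5.58%) for otk2 RNAi, 291 higher (2.61%) and 331 lower (2.97%), and 397 genes (3.56%) for UAS-otk1, 129 higher (1.16%) and 268 lower (2.4%). These comparisons use libraries of the pair and the difference between the counts was not tested. With the age score in the fit the count for UAS-otk1 was 343. Comparisons between groups outside the pair, looked up below, gave fewer genes than the 57. Otk2 RNAi wnt4 RNAi against wnt4 RNAi gave 20 (0.179%), and otk1 RNAi otk2 RNAi against otk1 RNAi gave 26 (0.233%). UAS-otk1 UAS-wnt4 against UAS-wnt4 gave 24 (0.215%). Without 1 library the count for otk2 RNAi fell to 296 (otk2 RNAi replicate 1), 200 (otk2 RNAi replicate 2), 194 (otk1 RNAi replicate 1) and 133 (otk1 RNAi replicate 2), and with the age score in the fit it was 171. The count for UAS-otk1 fell to 235 (UAS-otk1 replicate 1), 133 (UAS-otk1 replicate 2), 158 (otk1 RNAi replicate 1) and 176 (otk1 RNAi replicate 2).

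Genes of the Wnt pathway were followed first. None of the 6 Wnt ligand genes tested passed, their median difference was −0.06, and all 6 had an interval within 2-fold. Wnt4 was at 84.5 and 62.9 CPM in otk2 RNAi, against 83.9 and 81.0 CPM in UAS-otk1 and 126 and 107 CPM in WT. The pair overlapped, with a difference of −0.16 and an interval of −0.49 to 0.17. Wingless, the founding Wnt of the segmental epidermis, was at 47.4 and 44.1 CPM in otk2 RNAi, against 48.7 and 50.2 CPM in UAS-otk1 (−0.11, interval −0.54 to 0.32). Of the 7 Off-track, Ryk and Ror type receptor genes, otk and otk2 passed, both lower in otk2 RNAi, and the other 5 had an interval within 2-fold. Of the 11 Frizzled and Wnt secretion genes none passed, with a median of −0.03 and 10 intervals within 2-fold.

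Of 19 genes that transduce the canonical signal, arm passed, 5 lay above 0 and the median was −0.14. Arm, the β-catenin of the fly (X, 1891401 to 1900646, minus strand, overlapping mRpL16), was at 637 and 665 CPM in otk2 RNAi, against 1385 and 1390 CPM in UAS-otk1 and 1219 and 1477 CPM in WT. Both otk2 RNAi libraries were below every one of the 18 others, and arm fell by 1.09 ± 0.11 on the log2 scale (adjusted p = 0.000269 by edgeR). Dsh, which relays the signal from Frizzled, was at 108 and 121 CPM in otk2 RNAi, against 127 and 138 CPM in UAS-otk1, a difference of −0.21 that did not pass. Axin, a scaffold of the destruction complex, was at 211 and 201 CPM in otk2 RNAi, against 232 and 230 CPM in UAS-otk1 (Axn, −0.17 ± 0.16). Arm was thus the single member of this list to pass.

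Targets of Wingless did not pass: 0 of 9, with a median of −0.12, none above 0 and 8 intervals within 2-fold. The piRNA pathway list (17 tested) and the pair-rule list (6 tested) held no gene above 0 either, against 4 of 16 segment polarity and Hedgehog genes. Engrailed, which marks the posterior of each segment, was at 51.9 and 50.7 CPM in otk2 RNAi, against 54.1 and 53.6 CPM in UAS-otk1, and its interval of −0.59 to 0.45 lay within 2-fold. Frizzled3, a receptor whose own RNA is induced by Wingless, was at 18.8 and 18.3 CPM in otk2 RNAi, against 23.0 and 27.6 CPM in UAS-otk1 (fz3, −0.44 ± 0.14, adjusted p = 0.618 by edgeR). Its groups did not overlap, and fz3 did not pass. Segment polarity and Hedgehog genes (0 of 16, median −0.07, 16 intervals within 2-fold), planar cell polarity genes (0 of 9, 9 within) and EGF receptor and Ras genes (0 of 23, 23 within) likewise held no gene past the threshold.

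Septate junctions seal the fly epithelium as tight junctions do in vertebrates. None of 22 genes of the pleated and none of 4 of the smooth septate junction passed. Their medians were 0.17 in both lists, 21 of the 22 and 4 of the 4 lay above 0, and 21 and 4 had an interval within 2-fold. This lean was not particular to junction genes. Of integrin and basement membrane genes 14 of 14 lay above 0 (median 0.17). Of mitochondrial ribosomal protein genes 64 of 72 did (median 0.17). Of proteasome genes 12 of 32 lay above 0, and of piRNA pathway genes 0 of 17. Mesh, a transmembrane protein of the smooth junction, was at 204 and 156 CPM in otk2 RNAi, against 136 and 194 CPM in UAS-otk1 (0.12, interval −0.44 to 0.68), and the groups overlapped. Gliotactin, a protein of tricellular corners, was at 178 and 162 CPM in otk2 RNAi, against 157 and 165 CPM in UAS-otk1 (Gli, 0.08, interval −0.16 to 0.32). Nrv2, a sodium pump subunit of the pleated junction, stood farthest out at 276 and 292 CPM in otk2 RNAi, against 193 and 164 CPM in UAS-otk1. Its groups did not overlap, but the difference of 0.67 ± 0.20 did not pass (nrv2, adjusted p = 0.505 by edgeR). The remaining genes that the study names (ths, Egfr, ea, dlg1, l(2)gl, cora and Fas3) did not pass either, with differences between −0.31 (ea) and 0.10 (cora).

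**Figure D2:**
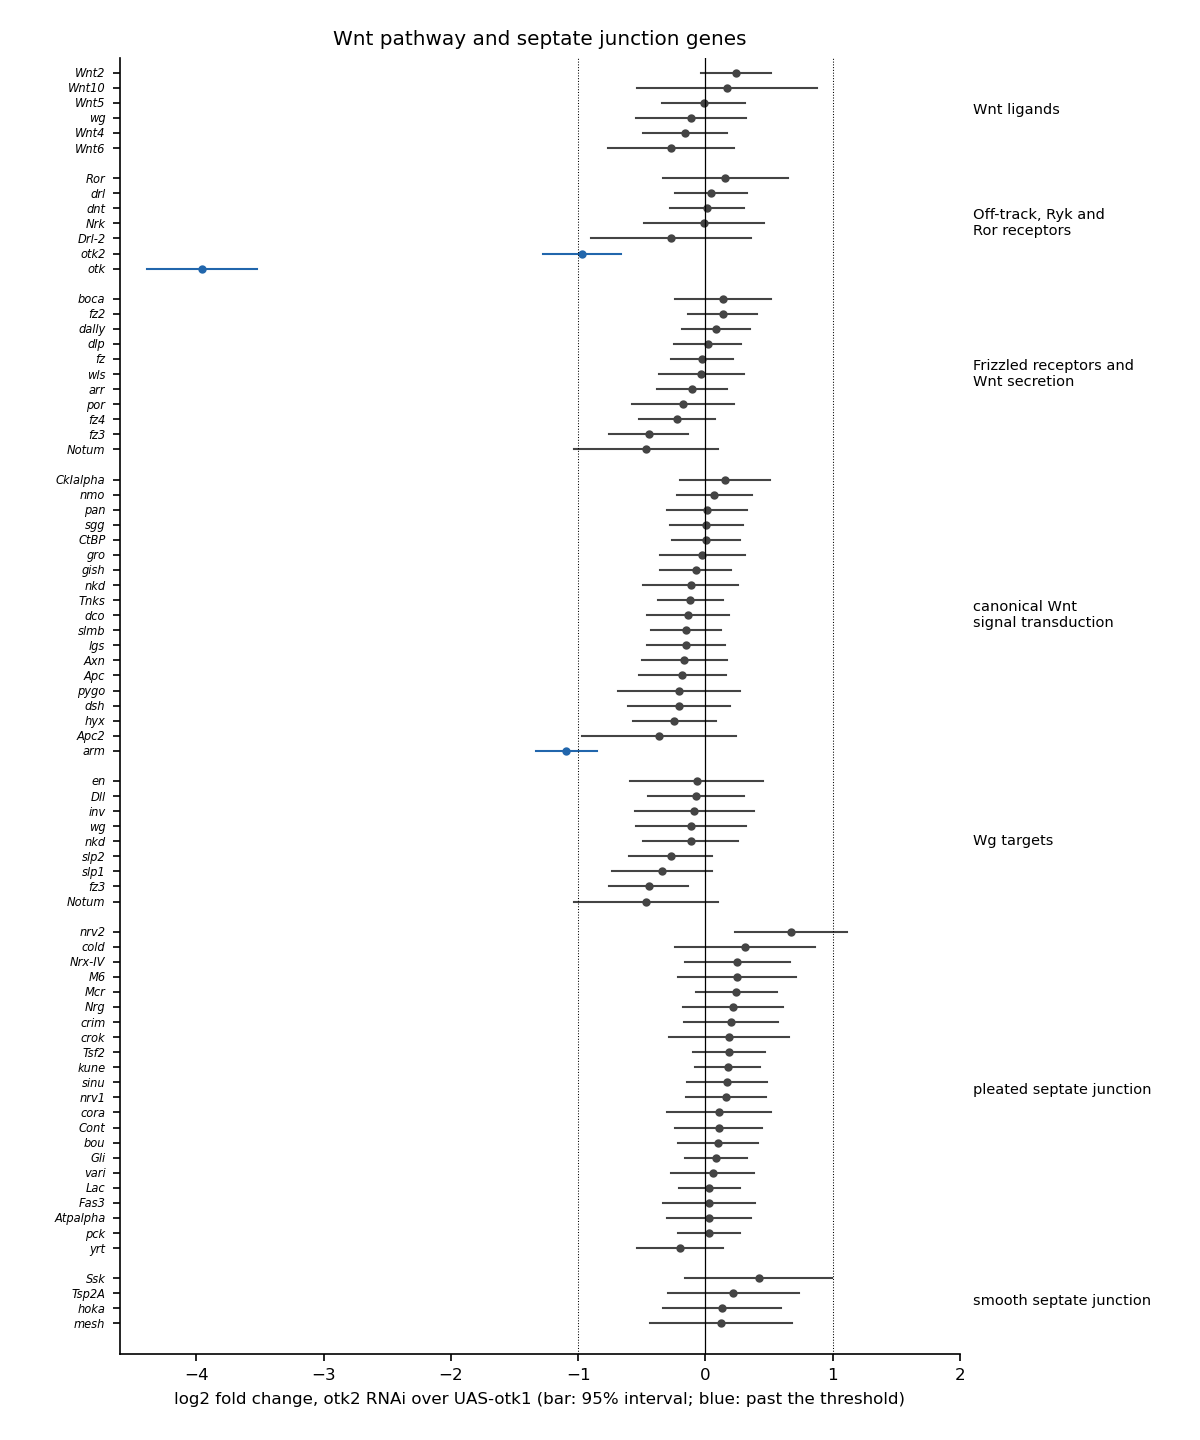
Log2 fold change of otk2 RNAi over UAS-otk1 with its 95% interval for each tested gene of 7 lists, from Wnt ligands to smooth septate junction. Blue points passed an adjusted p of 0.1 (otk, otk2 and arm) and grey points did not. Nearly all grey intervals lie between the lines at a 2-fold difference.

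Of 57 gene lists with 1083 tested genes, 50 held no gene past the threshold. Since 0.511% of all genes passed, the absence of a call says little about a short list, and its intervals are given beside it. The 11 listed genes that passed (1.02% of those listed) were otk, otk2, arm, y, w, GILT3, Jon65Aiii, Cyp4p1, Cyp4p2, Cyp6a8 and Ugt37D1. Without 1 library the number was 6 (UAS-otk1 replicate 1), 8 (UAS-otk1 replicate 2), 7 (otk2 RNAi replicate 1) and 5 (otk2 RNAi replicate 2). Cytosolic ribosomal protein genes had 0 of 83 past the threshold, a median of 0.15 and 78 intervals within 2-fold. Of 20 sarcomere genes 18, of 19 neuron and synapse genes 15, and of 23 axon guidance genes 23 had such an interval, and none passed. Cuticle protein genes were measured less tightly: 0 of 75 passed, with a median of 0.40, 57 above 0 and only 4 intervals within 2-fold. Their summed level was 996 and 1850 CPM in otk2 RNAi and 724 and 1390 CPM in UAS-otk1, and the replicates of each group lay farther apart than the group means. Heat shock genes (0 of 9, median −0.47, 2 within 2-fold) carried the high level of UAS-otk1 replicate 2 described above. Genes of small RNA silencing did not pass (0 of 9, 9 within 2-fold).

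The genes that did pass were next looked up in libraries outside the pair, which share only the filter and the estimate of the spread with it. The otk2 hairpin also entered the groups otk2 RNAi wnt4 RNAi and otk1 RNAi otk2 RNAi. Each was set against the group with the same other label and no hairpin (the libraries labelled wnt4 RNAi, and otk1 RNAi). Averaged over both backgrounds, 42 genes passed (0.377%, with 27 higher at 0.242% and 15 lower at 0.134%, and 549 at an unadjusted p under 0.05). Wnt4 was among them, lower by 0.62 ± 0.11 with the hairpin (adjusted p = 0.026 by edgeR). Its mean was 151 CPM in wnt4 RNAi and 78.9 CPM in otk2 RNAi wnt4 RNAi. In otk1 RNAi and otk1 RNAi otk2 RNAi it was 89.7 and 72.5 CPM. Whether the hairpin or the stocks account for this was not tested. Of the 33 genes higher in otk2 RNAi in the pair, 15 (45.5%) were also higher with the hairpin there, and of the 24 lower genes 3 (12.5%) were also lower. None of the 57 passed in the opposite direction. The 18 shared genes made up 31.6% of the 57 and 42.9% of the 42. Of them CG13223, CG2955 and CatB had means of 0.0714, 1.64 and 5.64 counts in the 14 libraries without the hairpin and reached the filter only through libraries that carry it. The 42 fell to 19 without wnt4 RNAi replicate 2, 19 without otk1 RNAi replicate 1, 20 without otk1 RNAi replicate 2, 27 and 20 without replicates 1 and 2 of otk2 RNAi wnt4 RNAi, and was 67 without otk1 RNAi otk2 RNAi replicate 2. The 18 shared genes became 12, 12, 13, 14, 13 and 16 in that order. In single backgrounds 20 genes (0.179%) passed with wnt4 RNAi and 26 (0.233%) with otk1 RNAi, including 10 and 17 of the 57 in the same direction. Of the 18 shared genes, 10 passed in both backgrounds. For CG31221, thw, lncRNA:CR44922 and CG12522 the average came from the otk1 RNAi background, at 3.38, 2.15, 2.80 and 6.61 on the log2 scale. In the wnt4 RNAi background their differences were 0.03, 0.06, 0.05 and −0.31.

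UAS-otk1 could be looked up in the same way in UAS-otk1 UAS-wnt4 against UAS-wnt4, where 24 genes passed (0.215%), 12 higher (0.108%) and 12 lower (0.108%). Of the 24 genes that were higher in UAS-otk1 in the pair, 3 (12.5%) were also higher there: otk, CG13083 and TotE. The 24 became 9 without UAS-wnt4 replicate 1 and 7 and 5 without replicates 1 and 2 of UAS-otk1 UAS-wnt4, and these 3 genes passed each time. CG15128 went the other way, at 0.306 CPM in UAS-otk1 UAS-wnt4 and 2.29 CPM in UAS-wnt4 (−2.68 ± 0.44, adjusted p = 0.0246 by edgeR). Of the 57 genes, 36 were in neither of these sets.

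**Figure D3:**
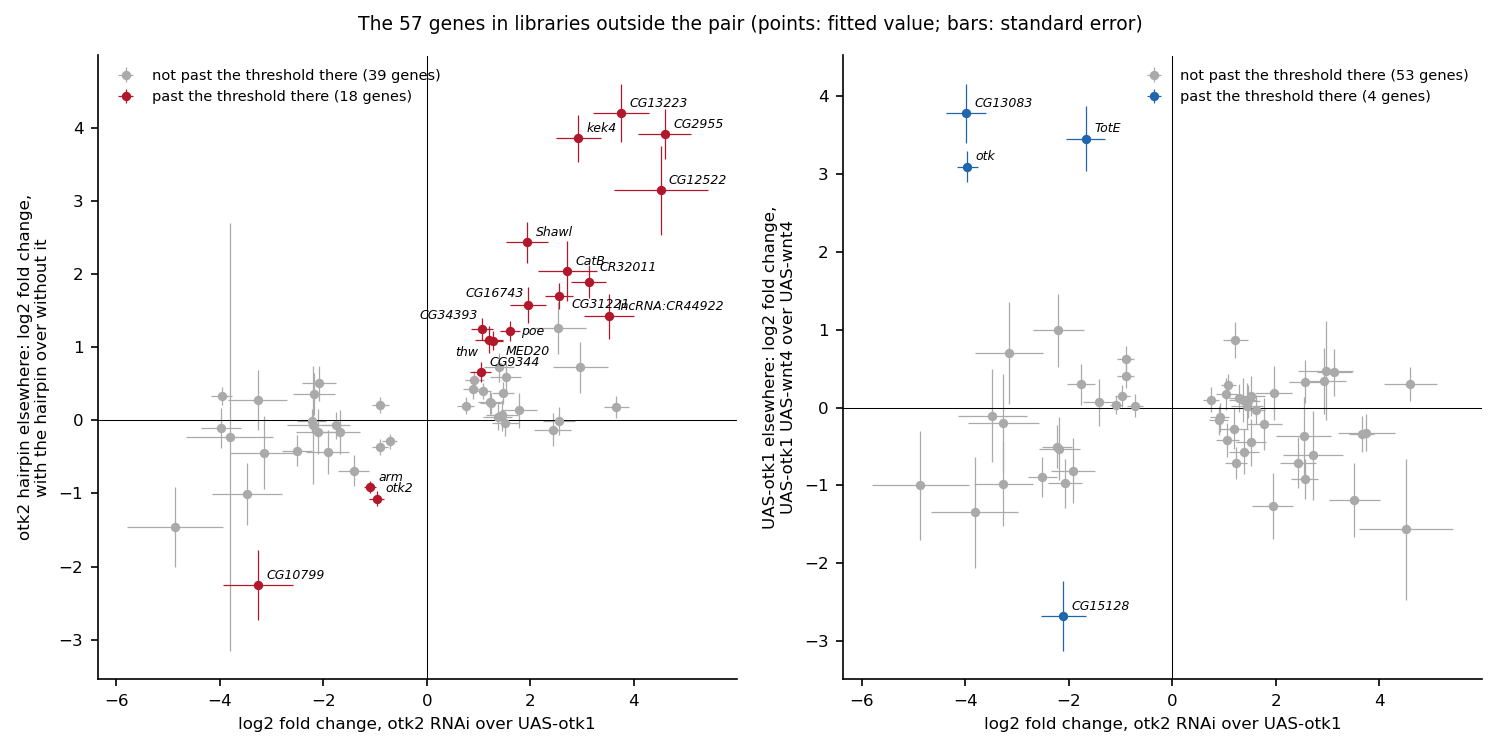
Log2 fold change of otk2 RNAi over UAS-otk1 for the 57 genes past the threshold against their log2 fold change with the otk2 hairpin in other groups and with UAS-otk1 on UAS-wnt4, with standard errors as bars. Red points (18, hairpin) and blue points (4, UAS-otk1) passed in those other libraries too, and grey points did not. A gene with no usable standard error is not drawn.

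Poe and MED20, which lie side by side, rose in otk2 RNAi and were higher in all 6 libraries with the hairpin. Purity of essence (poe), the fly ortholog of the ubiquitin ligase UBR4, lies on 2L at 8054322 to 8071624. It was at 968 and 748 CPM in otk2 RNAi, against 246 and 315 CPM in UAS-otk1 and 224 and 281 CPM in WT, and rose by 1.61 ± 0.19 (adjusted p = 0.0008 by edgeR). MED20, a subunit of the Mediator complex, lies 188 bases away at 8071812 to 8072848, and both genes are on the minus strand. It was at 37.6 and 32.3 CPM in otk2 RNAi, against 16.3 and 12.3 CPM in UAS-otk1 and 10.4 and 12 CPM in WT (1.29 ± 0.18, adjusted p = 0.00384). Both neighbours were also higher in the other 4 hairpin libraries, poe at 794 to 1110 CPM and MED20 at 27.4 to 40.9 CPM, than in all 14 libraries without the hairpin, where poe was at 198 to 430 CPM and MED20 at 10.4 to 17.5 CPM.

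Arm and otk2 showed the same division in the other direction. Arm was at 671 to 996 CPM in the other hairpin libraries, against 1220 to 1750 CPM in the 14 without the hairpin, and the difference with the hairpin there was −0.91 ± 0.08 (adjusted p = 8.22e-05 by edgeR). Otk2 was at 18.8 to 26.0 CPM in those hairpin libraries, against 37.4 to 81.6 CPM in the 14 (−1.07 ± 0.10, adjusted p = 0.000106). In all, 10 of the 57 genes were higher in each of the 6 hairpin libraries than in any of the other 14 (14 of all genes tested, 0.126%) and 4 were lower in each (6 of all genes, 0.0538%). The 4 libraries of the pair, which chose the 57, are among these 20, so the choice in part fixes such orderings, here and for UAS-otk1 below. The 10 were poe, MED20, kek4, Shawl, CatB, CG2955, CG9344, CG13223, CG16743 and CG34393, and the 4 were arm, otk2, CG10799 and Jon65Aiii.

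**Figure D4:**
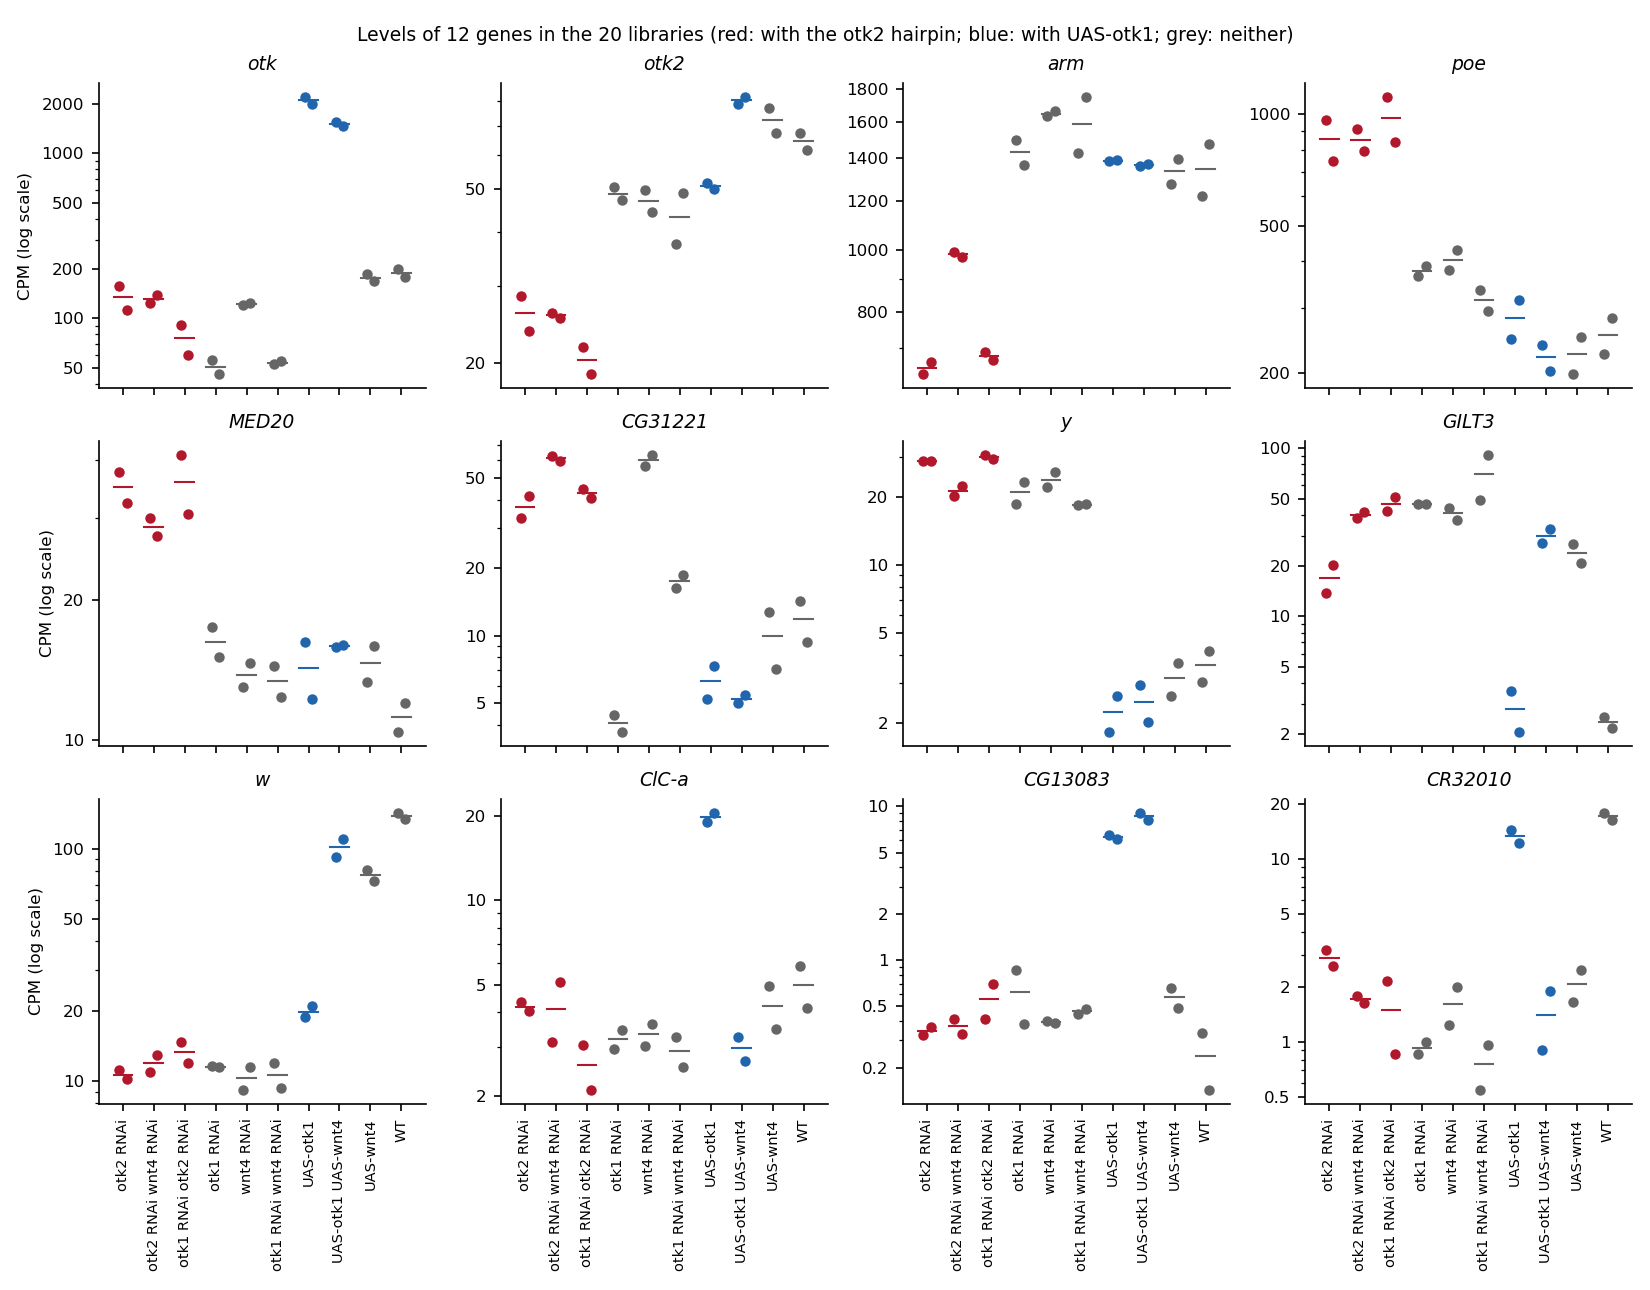
CPM (log axis) of 12 genes in each of the 20 libraries by group, with a bar at the group mean. Red points are libraries with the otk2 hairpin, blue points those with UAS-otk1 and grey points those with neither. Poe and MED20 are high and arm and otk2 low in all red points, while y is high in every group with an RNAi label.

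Kek4, a transmembrane protein with leucine-rich repeats, was at 2.60 and 4.05 CPM in otk2 RNAi, against 0.447 and 0.322 CPM in UAS-otk1 and 0.278 and 0.315 CPM in WT (2.93 ± 0.43, adjusted p = 0.00528 by edgeR). It rose by 3.86 ± 0.32 with the hairpin in the other groups, and its call in the pair was lost without UAS-otk1 replicate 2. Shawl, a voltage-gated potassium channel, was at 3.04 and 2.83 CPM in otk2 RNAi, against 0.447 and 0.994 CPM in UAS-otk1 (1.94 ± 0.40, adjusted p = 0.0654) and 1.33 and 1 CPM in WT, and 2.44 ± 0.28 higher with the hairpin elsewhere. Shawl overlaps Aldh, CG4438 and an antisense RNA, and its call was lost without UAS-otk1 replicate 1 and without either otk2 RNAi library. CG2955 had 117 counts in otk2 RNAi and 1 count in UAS-otk1, a ratio of 119 with a counting interval of 20.9 to 4730. CG13223 had 50 counts in otk2 RNAi and none in UAS-otk1, at least 8.46-fold higher when a floor of 3 counts per library is used, and CG10799 had none in otk2 RNAi and 35 in UAS-otk1, at least 5.75-fold lower. CG13223 and CG10799 were lost without each of the 4 libraries and CG2955 passed whichever was left out. Intervals and floors cover counting error only.

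CG34393 was at 11.1 and 10.2 CPM in otk2 RNAi, against 4.74 and 5.38 CPM in UAS-otk1, with a difference of 1.07 ± 0.22 (adjusted p = 0.0561 by edgeR). CG16743 was at 4.11 and 5.75 CPM in otk2 RNAi, against 0.954 and 1.49 CPM in UAS-otk1 (1.96 ± 0.35, adjusted p = 0.0276). Neither pair of groups overlapped. CG34393 was lost without each of the 4 libraries, and CG16743 without UAS-otk1 replicate 1 and without otk2 RNAi replicate 2. Of the 18 shared genes, 8 lie on chromosome arm 2L, which holds 17 of the 57 (29.8%) and 17.6% of all genes tested.

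A further set was high in otk2 RNAi, in the group labelled wnt4 RNAi alone and in the hairpin doubles, and low in otk1 RNAi. Group means in otk1 RNAi wnt4 RNAi lay between those of wnt4 RNAi and otk1 RNAi. They were 17.4 CPM for CG31221, 15.5 CPM for thw, 6.60 CPM for axo, 7.89 CPM for CG32073 and 2.49 CPM for CG12522. CG31221, on 3R, was at 33.2 and 41.6 CPM in otk2 RNAi, against 5.25 and 7.34 CPM in UAS-otk1 and 14.3 and 9.41 CPM in WT (2.56 ± 0.26, adjusted p = 0.000269 by edgeR). Its group means were 60.1 CPM in wnt4 RNAi, 61.4 CPM in otk2 RNAi wnt4 RNAi, 43.0 CPM in otk1 RNAi otk2 RNAi and 4.09 CPM in otk1 RNAi. Over all genes, 2 (0.0179%) had a hairpin effect that differed between the otk1 RNAi and wnt4 RNAi backgrounds, and CG31221 was one of them. Thw was at 46.0 and 42.3 CPM in otk2 RNAi, against 18.7 and 19.7 CPM in UAS-otk1 (1.20 ± 0.27, adjusted p = 0.0982), with means of 49.0 CPM in wnt4 RNAi and 8.97 CPM in otk1 RNAi. Thw was among the least stable calls, lost without each of the 4 libraries and under 6 other settings. Axotactin (axo), a secreted neurexin-related protein of glia, was at 15.1 and 12.7 CPM in otk2 RNAi, against 4.17 and 6.32 CPM in UAS-otk1 (1.40 ± 0.29, adjusted p = 0.0654), and was lost without each of the 4 libraries as well. It overlaps 5 other annotated genes. The neighbours CG32073 and CG12522, 653 bases apart on 3L, followed the same order. CG12522 was at 5.58 and 5.84 CPM in otk2 RNAi, against 0.209 and 0.175 CPM in UAS-otk1. The WT replicates lay far apart, at 7.91 and 0.772 CPM for CG12522 and 14.8 and 4.52 CPM for CG32073. Both genes were lost without each of the 4 libraries.

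Of the genes higher in UAS-otk1, 4 were above all 16 libraries without that transgene in each of the 4 libraries that carry it (10 of all genes, 0.0897%): otk, CG13083, TotE and TotF. CG13083, on 2L within CG10194, was at 0.325 and 0.365 CPM in otk2 RNAi, against 6.53 and 6.11 CPM in UAS-otk1 and 0.33 and 0.143 CPM in WT (−3.98 ± 0.39, adjusted p = 0.000212 by edgeR). With UAS-otk1 on UAS-wnt4 it rose by 3.78 ± 0.38 (adjusted p = 0.000288). TotE, a stress-induced Turandot peptide that lies 561 bases from TotF, was at 0.768 and 0.548 CPM in otk2 RNAi, against 2.30 and 2.16 CPM in UAS-otk1, and fell by 1.67 ± 0.37 on the log2 scale (adjusted p = 0.0982). TotE and TotF were each lost without each of the 4 libraries in turn. Cyp6a8 and pre-mod(mdg4)-G were below the other 16 in all 4 libraries with the transgene (4 of all genes, 0.0359%).

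Another 6 genes were high in UAS-otk1, and none of them passed with UAS-otk1 on UAS-wnt4. ClC-a, a chloride channel on 3R, was at 4.34 and 4.02 CPM in otk2 RNAi, against 19 and 20.6 CPM in UAS-otk1 and 5.83 and 4.12 CPM in WT (−2.23 ± 0.29, adjusted p = 0.0016 by edgeR). In the 18 libraries outside UAS-otk1 it was at 2.1 to 5.83 CPM. Orcokinin, a neuropeptide gene, was at 2.33 and 1.89 CPM in otk2 RNAi, against 8.79 and 5.79 CPM in UAS-otk1 (−1.76 ± 0.27, adjusted p = 0.00653), and was lost without UAS-otk1 replicate 1 and without otk2 RNAi replicate 2. TkR99D, a tachykinin receptor, was at 1.39 and 1.16 CPM in otk2 RNAi, against 5.04 and 4.91 CPM in UAS-otk1 (−1.92 ± 0.42, adjusted p = 0.0833), and was lost without each of the 4. The others were CG5687, CG5892 and Ir64a, an ionotropic receptor with 1 count in otk2 RNAi and 205 counts in UAS-otk1, a ratio of UAS-otk1 over otk2 RNAi of 202 with a counting interval of 35.8 to 8010. Ir64a was lost without UAS-otk1 replicate 1 and without either otk2 RNAi library, and CG5687 and CG5892 without each of the 4. Both UAS-otk1 libraries were above the other 18 for 8 of the 57 genes (48 of all genes, 0.43%) and below them for 5 (92 of all genes, 0.825%): CG9961, cGlr2, CG32640, CG6870 and pre-mod(mdg4)-G. Both otk2 RNAi libraries were above the other 18 for Mocs1 and CG9344 (21 of all genes, 0.188%) and below them for Mst36Fb, arm and phr (29 of all genes, 0.26%).

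Genes that fly stocks are often marked with also differed. Yellow (y), a secreted protein needed for dark cuticle pigment, lies on X and overlaps CG32816. It was at 28.9 and 28.8 CPM in otk2 RNAi, against 1.82 and 2.63 CPM in UAS-otk1 and 3.03 and 4.15 CPM in WT (3.66 ± 0.24, adjusted p = 1.86e-06 by edgeR). In the 12 libraries with an RNAi label y was at 18.5 to 30.7 CPM, and in the 8 without at 1.82 to 4.15 CPM, so the ranges did not overlap. Cyp6a8 (30.6 to 62.8 against 11.4 to 24.6 CPM) and blanks (9.74 to 25.6 against 3.81 to 5.47 CPM) divided the same way without overlap. So did CG31300, CG31103, CG32640 and, at low levels, CG2955. Otk (46 to 156 against 168 to 2190 CPM) and w (9.14 to 14.7 against 18.8 to 143 CPM) divided the other way. Otk is itself the target in the groups labelled otk1 RNAi or UAS-otk1. The libraries of the pair, which chose these genes, are among those divided. How many of all genes tested divide this way was not counted, so the list is a description. Whether the stocks account for these divisions was not tested. White (w), a subunit of the transporter for eye pigments and the usual marker of transgenes, was at 11.1 and 10.2 CPM in otk2 RNAi, against 18.8 and 20.9 CPM in UAS-otk1 and 143 and 134 CPM in WT (−0.90 ± 0.16, adjusted p = 0.0276). Its means were 76.8 CPM in UAS-wnt4 and 102 CPM in UAS-otk1 UAS-wnt4, and the call in the pair was lost without each of the 4 libraries. Vermilion, the third marker examined, was at 9.43 and 11 CPM in otk2 RNAi, against 4.23 and 7.81 CPM in UAS-otk1 (v, 0.75 ± 0.28), and did not pass.

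Of 127 detoxification genes tested, 2 were higher and 2 lower (3.15% in all, against 0.511% over all genes), with a median of 0.17, and both lower ones are neighbours. The neighbours Cyp4p2 and Cyp4p1, cytochromes P450 that lie 210 bases apart on 2R inside hig, were the lower ones. Cyp4p2 was at 5.88 and 5.60 CPM in otk2 RNAi, against 27.5 and 21.4 CPM in UAS-otk1 and 12.6 and 8.67 CPM in WT (−2.08 ± 0.33, adjusted p = 0.00962 by edgeR), and Cyp4p1 was at 0.650 and 0.548 CPM, against 4.14 and 3.25 CPM in UAS-otk1 (−2.51 ± 0.29, adjusted p = 0.000612). Cyp4p2 was lost without UAS-otk1 replicate 1 and without either otk2 RNAi library. The higher ones were Cyp6a8, another P450, at 30.6 and 31.0 CPM in otk2 RNAi against 11.4 and 14.7 CPM in UAS-otk1 (1.23 ± 0.21, adjusted p = 0.0159), and Ugt37D1, a UDP-glycosyltransferase, at 37.5 and 36.9 CPM in otk2 RNAi against 22.1 and 22.0 CPM in UAS-otk1 (0.75 ± 0.16, adjusted p = 0.0805). Cyp6a8 was lost without UAS-otk1 replicate 1 and without otk2 RNAi replicate 2, and Ugt37D1 without each of the 4. Like y, Cyp6a8 was higher in every library with an RNAi label than in any without. In WT, Ugt37D1 was at 41.1 and 33.7 CPM, near otk2 RNAi.

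GILT3, a thiol reductase gene, was at 13.7 and 20.1 CPM in otk2 RNAi, against 3.58 and 2.05 CPM in UAS-otk1 and 2.53 and 2.17 CPM in WT (2.56 ± 0.31, adjusted p = 0.00094 by edgeR). UAS-otk1 was near WT, whereas the means of the other groups were higher, at 23.8 CPM in UAS-wnt4, 30.0 CPM in UAS-otk1 UAS-wnt4 and 40.1 to 70.3 CPM in the other RNAi groups. The pseudogene CR32010 on chromosome 4 also had UAS-otk1 near WT, at 3.16 and 2.62 CPM in otk2 RNAi, against 14.3 and 12.3 CPM in UAS-otk1 and 17.9 and 16.4 CPM in WT (−2.18 ± 0.40, adjusted p = 0.03). It was lost without each of the 4 libraries. Its neighbour CR32011, 875 bases away, ran opposite (3.13 ± 0.34, adjusted p = 0.000353 by edgeR). It was at 8.48 and 6.91 CPM in otk2 RNAi, against 0.566 and 1.08 CPM in UAS-otk1 and 0.749 and 0.486 CPM in WT. CR32011 was also at 6.58 and 6.15 CPM in UAS-wnt4 and 10.1 and 7.33 CPM in UAS-otk1 UAS-wnt4, which carry no hairpin. In the RNAi groups without the hairpin its means were 1.44 to 2.18 CPM. For CR32010 the group means outside UAS-otk1 and WT were 0.755 to 2.89 CPM.

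**Figure D5:**
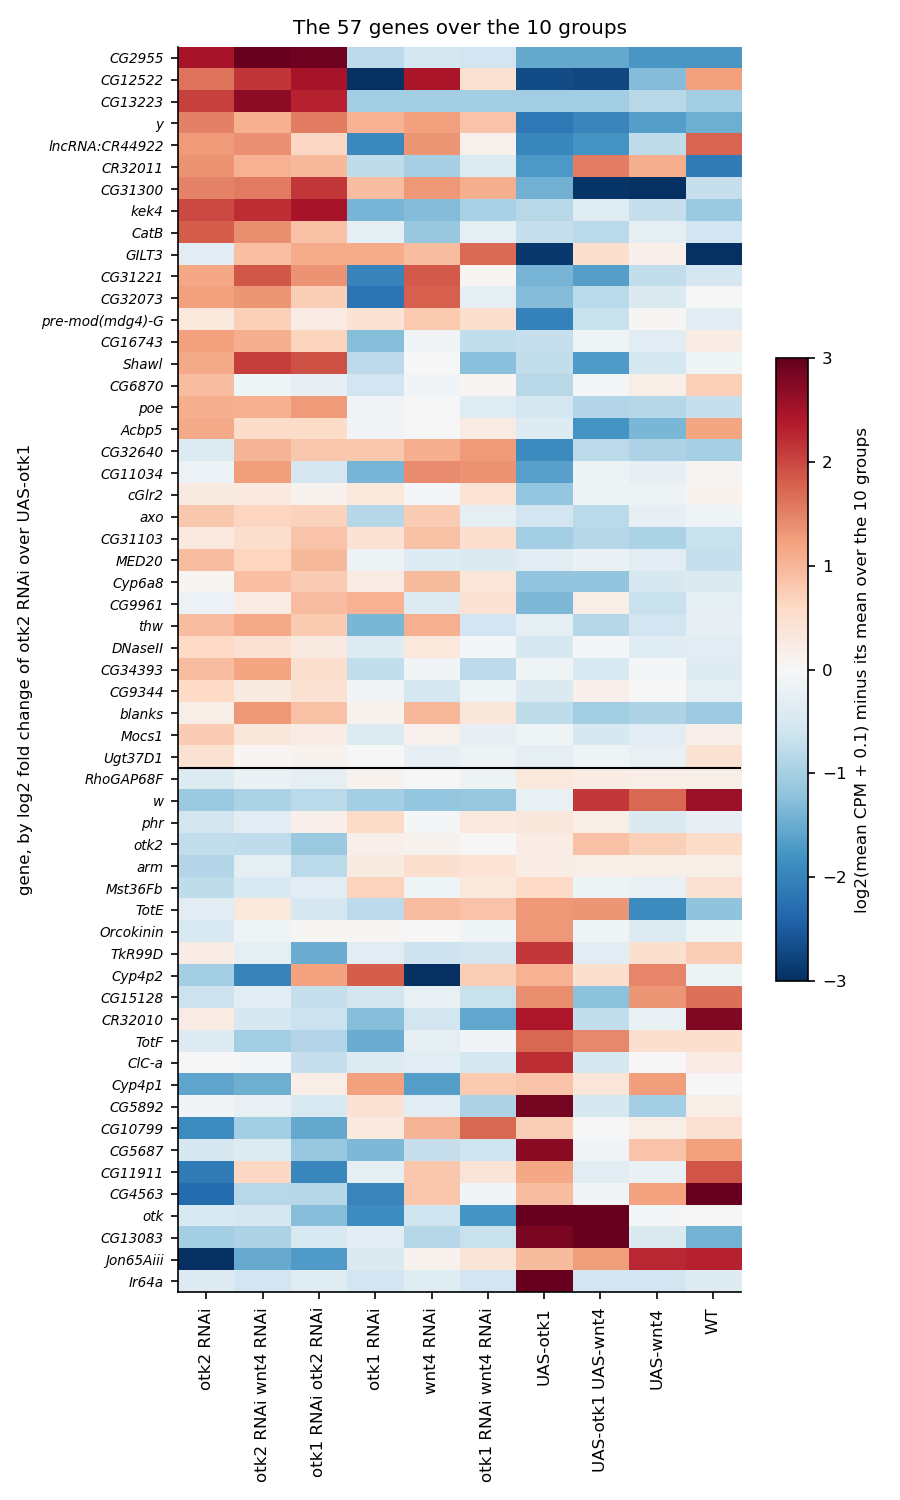
Log2 of the mean CPM plus 0.1, minus the row mean, for the 57 genes past the threshold in the 10 groups, with colours limited at −3 and 3. A black line divides the 33 genes higher in otk2 RNAi from the 24 lower. The remaining 8 groups do not side as a block with either member of the pair.

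The remaining named genes were spread over unrelated roles. DNaseII, an acid nuclease of lysosomes, was at 92.3 and 101.9 CPM in otk2 RNAi, against 49.7 and 41.8 CPM in UAS-otk1 (1.09 ± 0.15, adjusted p = 0.00353 by edgeR). Acbp5, an acyl-CoA binding protein, was at 11.7 and 16.4 CPM in otk2 RNAi, against 4.74 and 4.94 CPM in UAS-otk1 and 17.2 and 12.2 CPM in WT (1.52 ± 0.29, adjusted p = 0.0419). Blanks, which binds double-stranded RNA and is known from the male germline, was at 10.3 and 10.4 CPM in otk2 RNAi, against 5.46 and 5.47 CPM in UAS-otk1 (blanks, 0.92 ± 0.19, adjusted p = 0.0594). None of these groups overlapped, and DNaseII alone of the 3 passed whichever library was left out. Like y, blanks was higher in every library with an RNAi label than in any without.

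Mocs1, an enzyme of molybdenum cofactor synthesis that overlaps Pfdn2, was at 17.4 and 14.3 CPM in otk2 RNAi, against 7.24 and 9.74 CPM in UAS-otk1 (0.90 ± 0.19, adjusted p = 0.0684 by edgeR). Phr, a photolyase that repairs ultraviolet damage in DNA and overlaps Prosalpha1, was at 21.2 and 22.5 CPM in otk2 RNAi, against 48.1 and 33.5 CPM in UAS-otk1, and fell by 0.90 ± 0.16 on the log2 scale (phr, adjusted p = 0.0239). Both were lost without UAS-otk1 replicate 1 and without either otk2 RNAi library.

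Jon65Aiii was the one of 35 larval gut digestive enzyme genes to pass. It was at 0 and 0.213 CPM in otk2 RNAi, against 4.14 and 5.38 CPM in UAS-otk1 and 14.9 and 9.93 CPM in WT (−4.87 ± 0.93, adjusted p = 0.0419 by edgeR), and was lost without each of the 4 libraries. The gut list as a whole had a median of −0.41 and summed to 95.2 and 118 CPM in otk2 RNAi, 108 and 110 CPM in UAS-otk1 and 437 and 417 CPM in WT. The pair overlapped in this sum, and both groups were below WT. RSEM divides reads among near-identical copies such as the Jonah proteases, which makes their values uncertain.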

How the data were processed

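The authors aligned reads to dm6 with STAR 2.7.1a and estimated gene levels with RSEM 1.3.1. Each deposited file holds, per gene, an expected count, a TPM and an FPKM, and the FPKM was not used. Deposited expected counts are estimates (11.6% were not whole) and were rounded. The deposited TPM of the authors, which is per length and per library, served only to compare levels between genes. No source used here states a strand setting for the counting. Reads of a gene and of one that overlaps it on the other strand therefore cannot be told apart, and 24 of the 57 genes that passed overlap another gene. Reads shared by otk and otk2 may be split between them.

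The files list 17714 genes, 17587 with a name in the annotation used here. Ribosomal, small nucleolar, small nuclear and mitochondrial RNA genes were removed (426 genes, 6.47 to 10.9% of the counts in the 4 libraries), and 11154 genes that averaged 10 counts or more over the 20 libraries were tested, holding 30762928 to 38843051 counts per library. Counts were scaled by TMM and tested by edgeR 4.0.16 (quasi-likelihood, all groups in a common fit, p-values adjusted by Benjamini-Hochberg over all genes, threshold 0.1). The common dispersion was 0.0336, with 10 residual degrees of freedom. Standard errors and 95% intervals come from the same test, and the median standard error was 0.207. R 4.3.3, DESeq2 1.42.0, Python 3.11.15 and matplotlib 3.10.9 were used.

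The members, gene lists and rule for named genes were chosen with earlier results of these data known. The rule takes 15 genes that the study names, up to 15 rises and 15 falls past the threshold with a mean of at least 100 counts, no overlap between groups and a name that is no CG or CR number, up to 4 called members of a list per direction, and up to 10 genes shared with other libraries. Other genes named were chosen after their values were seen. Alternatives were DESeq2, RLE scaling, library size alone, other filters, a stricter threshold (0.05), a block for replicate numbers, the age score as a covariate, fits of fewer libraries and leaving out each library. Replicates differed by more than sampling noise in every group. Not every gene that meets the rule is reported here.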

Additional observations from a re-analysis of the deposited data

Results flagged for a closer look

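The response of CG31221 to the otk2 hairpin differed between the backgrounds in which it could be measured. In the otk1 RNAi background the group means were 43.0 CPM with the hairpin and 4.09 CPM without it, and in the wnt4 RNAi background they were 61.4 CPM with and 60.1 CPM without. The difference between these hairpin effects, otk1 RNAi minus wnt4 RNAi background, was 3.35 ± 0.36 on the log2 scale (edgeR quasi-likelihood test, adjusted p = 0.00216). Over all genes, 2 (0.0179%) passed this test, and CG31221 was the one of them among the 57. Each mean rests on 2 libraries.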

How the results depend on the processing

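Under DESeq2, 89 genes passed in otk2 RNAi against UAS-otk1, among them all 57, and under a threshold of 0.05 there were 36. A fit of only the libraries compared gave 26 genes, 24 of them among the 57, and 7 listed genes. RLE scaling gave 57, library size alone 49, no filter 55, a filter on the 4 libraries 59, the age score as a covariate 51 and the fit without WT 58. Leaving out 1 library of the pair gave 17 to 28 genes, 5 to 8 listed genes and 64.9 to 66.7% of intervals within 2-fold, and without a filter on low counts that share was 59.5%. With the hairpin in other groups, DESeq2 gave 86 genes, the age score 70, the wnt4 RNAi background alone 20, the otk1 RNAi background alone 26 (both chosen after seeing the data) and leaving out 1 library 19 to 67. UAS-otk1 on UAS-wnt4 gave 64 genes under DESeq2 and 5 to 20 without 1 library. Otk2 RNAi against otk1 RNAi gave 1007 genes under DESeq2, 171 with the age score and 133 to 296 without 1 library, and UAS-otk1 against otk1 RNAi gave 614 and 133 to 235. With the replicate number as a block, 61 genes passed, 55 of them among the 57, and no other count moved by over 1.5 times. The correlation over genes of replicate 1 minus replicate 2 between otk2 RNAi and UAS-otk1 was −0.00292. Over the 45 pairs of groups it ran from −0.227 to 0.63, with 17 over 0.1, and the libraries high in Hsp70 (below) were all replicate 2. Whether a replicate number stands for a batch shared by groups was not tested. The causes of the changes in these counts were not tested either. Over 14 settings, 12 of the 57 genes passed in each, 11 were lost in 1 to 3 and 34 in more, and none reversed. The age score differed by 0.468 between the groups, and by 0.379 to 0.484 under other lists or scaling, and 2 against 2 libraries cannot reach an exact permutation p below 0.33. Depth limits the 38 genes under 10 CPM most, where few counts stand behind a library's value.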

Other observations

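The summed level of the 6 Hsp70 copies and the level of Hsp68 were high together in single libraries rather than in groups. Hsp70Aa, at 0 to 4 CPM, followed the other copies in part. It was at 1.13 to 4 CPM in replicate 2 of UAS-wnt4, UAS-otk1, otk1 RNAi and otk2 RNAi wnt4 RNAi. In replicate 2 of WT and of otk1 RNAi otk2 RNAi it was at 0 CPM, and in WT replicate 1 at 1.5 CPM. The Hsp70 sum was 1550 CPM in UAS-otk1 replicate 2, and 485 to 1270 CPM in replicate 2 of WT, UAS-wnt4, otk1 RNAi, otk2 RNAi wnt4 RNAi and otk1 RNAi otk2 RNAi. In the other 14 libraries, both of otk2 RNAi included, it was 36.1 to 86.9 CPM. Hsp68, a related inducible chaperone, was at 4.49 and 5.69 CPM in otk2 RNAi, against 3.88 and 175 CPM in UAS-otk1. Of 12 genes at 1 CPM or more that differed beyond 4-fold in the pair without passing, 6 were heat shock genes. Reads of the near-identical Hsp70 copies are divided by RSEM, so single copies are uncertain.

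CG46312 was at 0 CPM in both otk2 RNAi libraries, against 34.5 and 6.2 CPM in UAS-otk1 (−8.41 ± 3.37, adjusted p = 0.965 by edgeR), and in WT, UAS-otk1 UAS-wnt4, otk2 RNAi wnt4 RNAi and otk1 RNAi otk2 RNAi it was at 4.12 to 22.1 CPM in 1 library and at most 0.0551 CPM in its replicate. CG33502 was at 0.0295 and 11 CPM in otk2 RNAi, against 0 and 0 CPM in UAS-otk1, beside 15.1 and 0 CPM in otk1 RNAi. Both were singled out after their values were seen.

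Neighbouring genes moved together in several places: poe with MED20, Cyp4p2 with Cyp4p1, TotF with TotE and CG32073 with CG12522 lay 188 to 653 bases apart and differed in the same direction, while CR32011 and CR32010 differed in opposite directions.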
